A study of Homo sapiens with 3 samples.

Results

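The genes described here are 45 genes that copy DNA, watch over its copying or repair it, chosen by symbol for their part in the response to replication stress, out of 29960 genes in the table. RNA was sequenced from single-cell clones of 5637, an established human bladder cancer line. The parental clones had the genotype WT and the resistant clones the genotype Gemcitabine Resistant, and both were labelled Untreated and grown in RPMI medium with fetal bovine serum. By the study's methods the resistant line came from repeated rounds of gemcitabine with drug-free recovery between them, at rising concentrations, and was then kept without the drug, while the labels call the treatment acute. Each library is 1 clone, and 3 libraries with a label were used, parental library 1 and resistant libraries 1 and 2. The authors' mean for each group was used beside them. It carries no SD, and although the series' design gives 3 clones per group, which of them the mean covers is not stated.

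Gemcitabine is a deoxycytidine analog that enters growing DNA strands and starves the cell of deoxynucleotides, so that replication forks stall. Before S phase the MCM proteins are loaded onto origins (licensing), and CDC45 and the GINS complex then turn them into the active helicase that the polymerases, the clamp PCNA and its loader RFC follow. Stalled forks expose single strands coated by RPA, which call up the kinase ATR and its effector CHEK1, and the Fanconi anemia and homologous recombination proteins protect, restart and mend such forks.

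Many of these genes are known targets of the E2F transcription factors, so the 250 bases upstream of their transcription starts were read. RefSeq promoters (GRCh38.p14) matched 39 of the 45 members, and MCM4, MCM5, RPA2, RPA3, WEE1 and FANCI were not matched. An E2F match was any of the words TTTGGCGC, TTTCCCGC, TTTGCCGC and TTTCGCGC on either strand. It was present in 10 of the 39 promoters (25.6%) and in 2.79% of the 27305 promoters of the same length. The box CCAAT was found in 25 of the 39 (64.1%), against 33% of all promoters. The word TTTGAA, a cell cycle homology element, was found in 2 (5.13%), against 13.6% of all. E2F matches fell in 4 of 6 licensing promoters and 4 of 8 fork synthesis promoters, but in 0 of 8 checkpoint promoters. A match says only that these letters are in the window, and the lack of one only that none of these exact words is. Near forms were not counted, such as TTTGGCGG in the windows of CDC6 and CDC45, nor were bases past the start. The counts by role therefore do not show that checkpoint genes lack E2F sites. The sequences given are those of MCM6 and BLM, which had the lowest ratios among the matched members, with PCNA and MCM7, of the same machinery, which also carry E2F matches. Each line runs 5′ to 3′ in the direction of the gene up to the base before its start, and capitals mark the E2F matches. The positions are those of GRCh38.p14, namely chr2:135876444-135876693 (minus strand) for MCM6, chr7:100101398-100101647 (minus strand) for MCM7, chr20:5126623-5126872 (minus strand) for PCNA and chr15:90717096-90717345 (plus strand) for BLM.
MCM6: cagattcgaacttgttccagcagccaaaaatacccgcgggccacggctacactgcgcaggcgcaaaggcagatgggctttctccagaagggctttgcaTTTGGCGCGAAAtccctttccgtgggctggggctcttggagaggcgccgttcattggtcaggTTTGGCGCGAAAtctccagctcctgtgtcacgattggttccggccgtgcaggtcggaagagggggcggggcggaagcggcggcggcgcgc
MCM7: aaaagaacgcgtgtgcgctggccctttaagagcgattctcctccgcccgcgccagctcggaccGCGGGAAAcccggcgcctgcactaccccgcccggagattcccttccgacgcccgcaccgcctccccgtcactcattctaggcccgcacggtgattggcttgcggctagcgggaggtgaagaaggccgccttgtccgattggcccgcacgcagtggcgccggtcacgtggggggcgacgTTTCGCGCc
PCNA: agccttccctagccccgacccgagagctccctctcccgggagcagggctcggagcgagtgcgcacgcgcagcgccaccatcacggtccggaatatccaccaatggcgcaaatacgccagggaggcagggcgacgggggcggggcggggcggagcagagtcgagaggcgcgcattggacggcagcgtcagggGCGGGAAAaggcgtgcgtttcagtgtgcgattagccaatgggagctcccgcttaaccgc
BLM: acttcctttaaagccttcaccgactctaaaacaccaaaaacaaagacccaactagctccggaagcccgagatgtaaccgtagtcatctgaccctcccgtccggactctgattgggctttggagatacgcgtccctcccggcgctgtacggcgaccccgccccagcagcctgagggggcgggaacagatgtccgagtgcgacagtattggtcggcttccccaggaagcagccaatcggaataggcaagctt
In MCM6 the 4 matches begin 152, 148, 90 and 86 bases before the start and overlap in pairs. MCM7 holds 2, at 187 and 9 bases, and PCNA holds 1, at 59 bases. BLM holds none, and its CCAAT boxes begin 141, 46 and 21 bases before the start.

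The libraries held 14475531, 15836788 and 17461941 reads on genes, in the order parental, resistant 1 and resistant 2. All 45 members passed the filter on low counts, which kept 15643 genes. The lowest member count was 87 reads (BRCA2 in resistant library 2, with a 95% Poisson interval from 69.7 to 107.3 that covers counting error only) and the highest 14721 (MCM7 in the same library). All 10 urothelial and epithelial markers were read in every library, among them KRT19 at 4311, 3593 and 4790 CPM (reads scaled to library size by the TMM method). By the group means 8 of the 10 were lower in the resistant group, with a median log2 ratio of -0.36. KRT5, a basal keratin, had only 9.79 and 13.8 CPM in resistant libraries 1 and 2, against 272 CPM in parental library 1. From these libraries edgeR gave a log2 fold change of -4.52. Its group means showed a smaller fall, from 11543.7 to 2047.2 normalized counts, a log2 ratio of -2.495. That resistant mean lay far above the 160 and 240 reads of resistant libraries 1 and 2. Their low KRT5 may therefore not hold for the whole resistant group. The parental mean likewise lay far above the 3829 reads of parental library 1. The KRT5 level of that library may not hold for the whole parental group either. KRT17 stood at 196, 17.2 and 53.4 CPM. Of 11 markers of immune, endothelial and fibroblast cells, 8 were found in the table. PTPRC had at most 4 reads and LUM had 0, whereas the collagen gene COL1A1 stood at 113, 96.95 and 61.3 CPM.

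The first question was whether these genes differed between drug-free resistant and parental cells. By the group means the median lay close to 0. The median log2 ratio of the resistant to the parental mean was -0.02 over the 45 members and 0.01 over all 14630 genes with a mean of at least 10, with 19 members higher and 26 lower. The ratios ran from -0.91 for WEE1 to 0.34 for CDC45, and 34 members lay within 0.25 of 0. The SD of the ratios was 0.27 over the members, 0.62 over all genes and 0.48 over the 10211 genes in the members' range of means.

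No member was at least 1.5-fold higher by the group means, where the share of all genes was 9.04%. The kinase WEE1, the helicase subunit MCM6 and the helicase BLM were at least 1.5-fold lower, 3 of 45 (6.67%) against 9.51% of all genes. Among the 10211 genes in the members' range of means, 5.29% were at least 1.5-fold higher and 7.07% at least 1.5-fold lower. In the fit of 1 parental against 2 resistant libraries (edgeR's quasi-likelihood test, with Benjamini-Hochberg adjustment over 15643 genes), 0 members passed an adjusted p of 0.05 in either direction, where 0.294% of all genes were called higher and 0.582% lower. The smallest adjusted p of a member by edgeR was 0.218, for WEE1. At an unadjusted p under 0.05 by edgeR, 0 members were higher and the same 3 were lower (6.67%), where 4.85% of all genes were higher and 4.85% lower. DESeq2 called 0 members and gave 3 with an unadjusted p under 0.05. Each gene's own spread came from the 2 resistant clones alone, with 1 residual degree of freedom. It was moderated toward a spread pooled over all tested genes, which weighed as 8.94 degrees of freedom. The pooled spread also came from these 2 clones. The parental clone was assumed to vary as they do, so the p-values hold no spread among parental clones. When the 3 libraries replaced the group means, the median log2 ratio of the members was -0.15 and 7 of them (15.6%) were at least 1.5-fold lower, where the share of all tested genes was 13.9%. The count was 11 (24.4%, against 18.3% of all genes) without resistant library 1 and 6 (13.3%, against 16%) without resistant library 2.

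**Figure D1:**
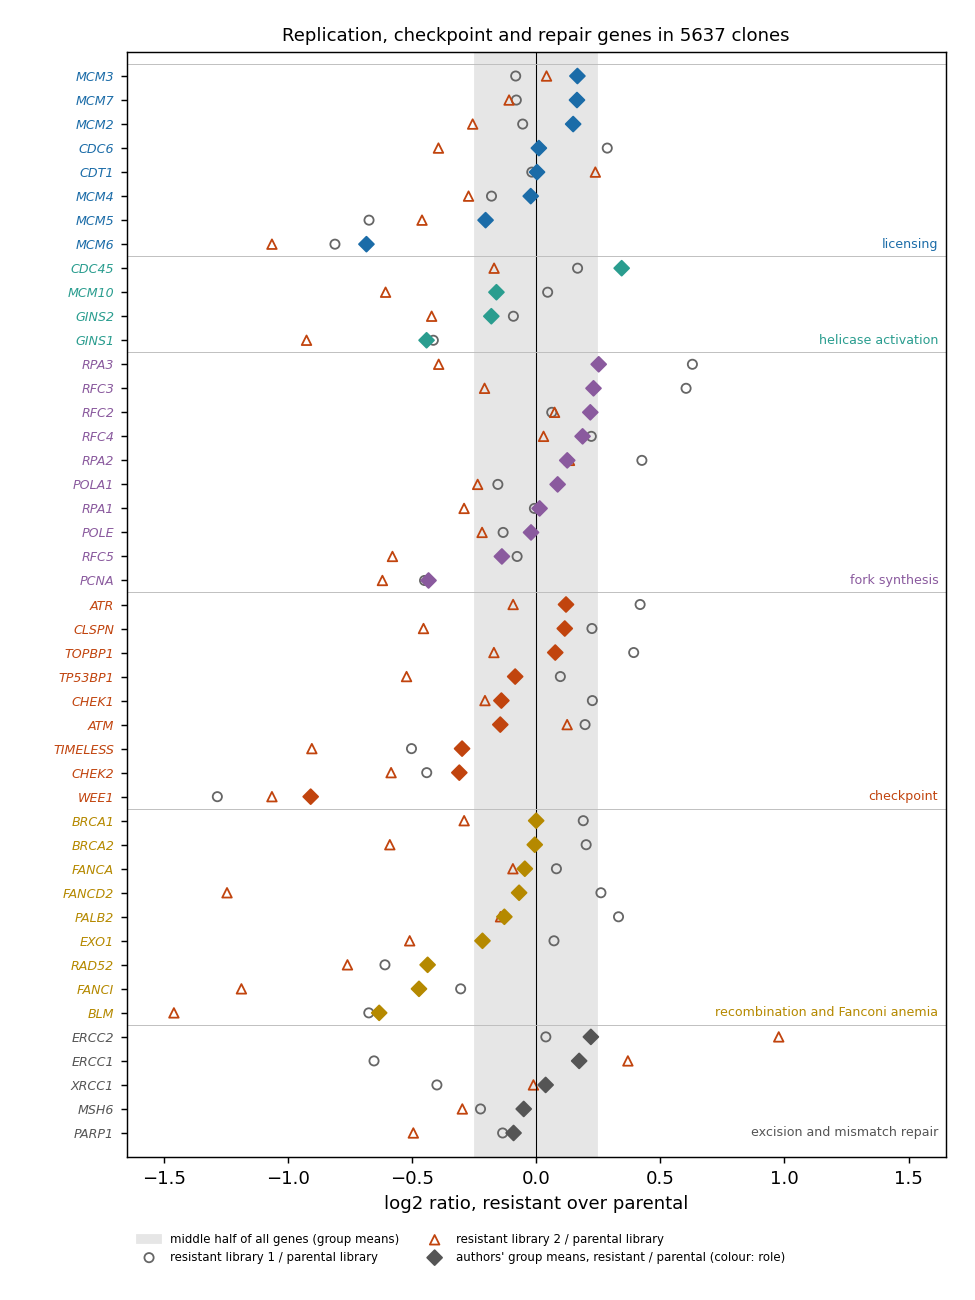
Log2 ratio of resistant over parental (horizontal axis) for each of the 45 members, ordered by role, with the ratio of the authors' group means as diamonds and those of each resistant library to the parental library as circles and triangles. Gray marks the middle range of all genes, from -0.25 to 0.24, which holds 34 of the 45 diamonds, and WEE1, MCM6 and BLM lie farthest to the left.

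The precision of that fit rested mostly on the spread pooled over genes, and only in part on the distance between the resistant clones in each gene. The 95% intervals of edgeR's log2 fold changes had a median width to each side of 0.81, from 0.75 to 1.19. For 18 members the interval lay wholly within 2-fold in both directions, among them MCM2, MCM3, MCM7, CDC45, POLE, CHEK1, ATM, BRCA1 and FANCA. For 42 members it held 0, which does not show that their levels were equal. The sign of the edgeR estimate differed from that of the group means for 12 members whose log2 ratios of group means lay between -0.14 (ATM) and 0.17 (ERCC1).

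**Figure D2:**
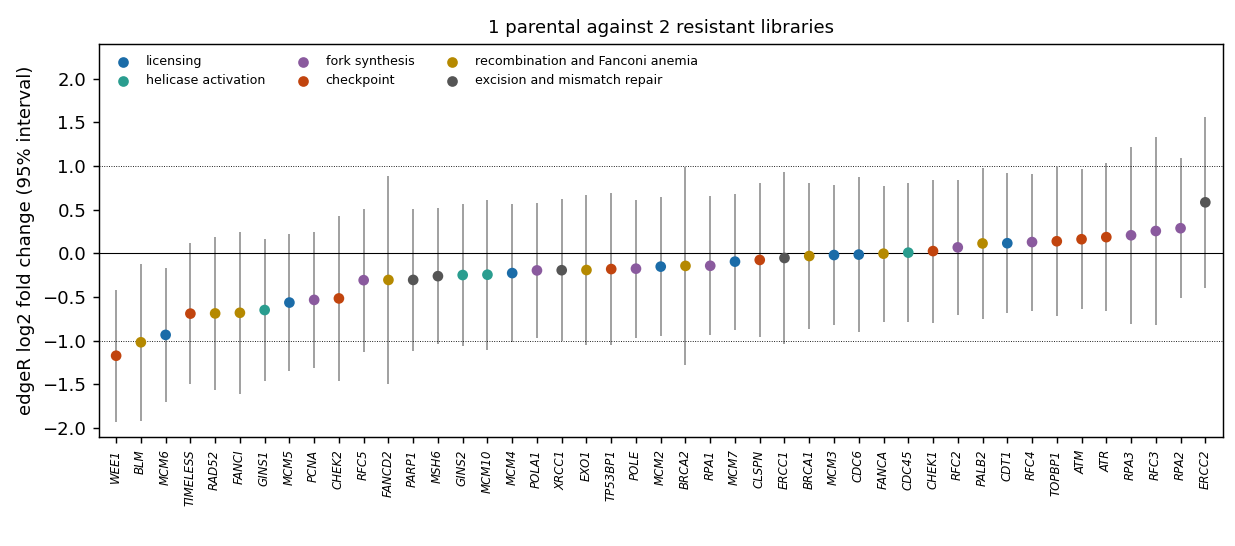
Log2 fold change by edgeR, resistant over parental (vertical axis), with its 95% interval for the 45 members in rising order, and dotted lines at 2-fold. The intervals of WEE1, BLM and MCM6, at the left, lie below 0, and the other 42 hold 0.

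The licensing group loads the inactive helicase onto origins, and its 8 members had a median log2 ratio of group means of 0.01. MCM2 to MCM7 form 1 ring in which each subunit is present once. MCM6 (ENSG00000076003, chromosome 2, 136597196 to 136633996 in the table's hg19 coordinates, minus strand) stood at 136 CPM in the parental clone, against 77.4 and 64.9 CPM in resistant clones 1 and 2. Both resistant values lay below the parental one. Its group mean of normalized counts was 1780 in the parental and 1107 in the resistant group, a log2 ratio of -0.68, and edgeR gave a log2 fold change of -0.93 ± 0.34 (SE) with an unadjusted p of 0.022 and a Benjamini-Hochberg adjusted p of 0.392.

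The other ring subunits were nearer to the parental level. MCM3, the highest of the group by ratio, was read at 191, 180 and 196 CPM in the same order of libraries, with a log2 ratio of group means of 0.17. MCM2 stood at 290, 280 and 243 CPM, and MCM4 at 191, 169 and 158 CPM. MCM5 was lower in both resistant libraries, at 208 against 131 and 151 CPM, and its log2 ratio of group means was -0.20. MCM7 was slightly below the parental library in both resistant ones, at 916, 866 and 849 CPM, although its log2 ratio of group means was 0.16. It was the most abundant member per length, at 301, 302 and 285 FPKM (reads scaled to gene length and library size). MCM6 had the lowest FPKM of the ring in all 3 libraries, at 35.4, 21.4 and 17.2, below MCM5 at 44.1, 29.3 and 32.7. MCM7 overlaps AP4M1 on the other strand, and whether the counting used strand is not stated, so reads of the pair may not be told apart.

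CDC6 and CDT1 bring the ring to the origin. CDC6 was read at 131, 159 and 99.3 CPM, so that the parental library lay between the resistant ones. CDT1 stood at 106, 105 and 125 CPM. Their log2 ratios of group means were 0.01 and 0.00.

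Helicase activation had a median log2 ratio of -0.17 over 4 members. CDC45 had the highest ratio of all 45 members, 0.34, from group means of 812.2 and 1031 normalized counts. Its 3 libraries did not repeat that difference: they held 59.8, 67.1 and 53.2 CPM, with the parental library in the middle, and edgeR's log2 fold change was 0.01 ± 0.36 (SE). GINS1, a GINS subunit, was lower in both resistant libraries, at 65.1 against 48.8 and 34.2 CPM, with a log2 ratio of group means of -0.44. GINS2 stood at 36.9, 34.6 and 27.5 CPM, and MCM10, which assists the start of unwinding, at 55.9, 57.7 and 36.7 CPM. All 4 genes were lower in resistant library 2 than in library 1.

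The fork synthesis group holds the clamp, its loader, polymerases and RPA, and had the highest median of the roles, a log2 ratio of group means of 0.11, with 7 members higher and 3 lower. The 3 libraries turned that median to -0.04, and to -0.23 without resistant library 1, with 5 members below the parental library in both resistant ones and 3 above. PCNA (ENSG00000132646, chromosome 20, 5095599 to 5107272 in hg19, minus strand) was at the low end. Parental cells had 203 CPM of it and the resistant libraries 149 and 132 CPM, both below that, and its group means were 2941 and 2176.5. Its log2 ratio was -0.43, and edgeR gave a log2 fold change of -0.53 ± 0.35 (SE) with a Benjamini-Hochberg adjusted p of 0.719.

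The small subunits that load the clamp showed no shared direction. RFC2 stood at 87.8, 91.7 and 92.4 CPM and RFC4 at 47.2, 55.0 and 48.1 CPM, both above the parental library in each resistant one. RFC3 was read at 9.87, 15.1 and 8.53 CPM, with the parental library between the resistant ones. RFC5 was below the parental library in both resistant ones, at 61.7, 58.5 and 41.3 CPM. The 4 log2 ratios of group means were 0.22, 0.19, 0.23 and -0.14 for RFC2, RFC4, RFC3 and RFC5.

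RPA3, the smallest RPA subunit, had the highest ratio of the fork group, 0.25, from group means of 517.0 and 615.7. Its libraries lay on either side of the parental one, at 32.9 CPM in the parental library, 50.9 in resistant library 1 and 25.02 in resistant library 2. RPA2 stood at 40.4, 54.2 and 44.3 CPM, and RPA1 at 122, 121 and 99.5 CPM. The polymerase subunits POLA1 (42.0, 37.7 and 35.6 CPM) and POLE (271, 247 and 233 CPM) were slightly below the parental library in both resistant ones, with log2 ratios of group means of 0.09 and -0.02.

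Among the 9 checkpoint genes, with a median log2 ratio of group means of -0.14, WEE1 stood apart. WEE1 (ENSG00000166483, chromosome 11, 9595228 to 9615004 in hg19, plus strand) is the kinase that holds CDK1 and CDK2 inactive by phosphorylation and so delays entry into mitosis. The parental library gave 113 CPM, from 1594 reads, and the resistant ones gave 46.4 and 54.1 CPM, from 758 and 938 reads. The resistant libraries lay close together and both well below the parental one. Its group means were 1421 and 756.5 normalized counts, a log2 ratio of -0.91. By edgeR the log2 fold change was -1.17 ± 0.34 (SE), with an unadjusted p of 0.006 and a Benjamini-Hochberg adjusted p of 0.218. WEE1 overlaps no other gene of the table.

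The kinases at the head of the checkpoint showed no shared direction. ATR was read at 33.95, 45.4 and 31.8 CPM, with the highest log2 ratio of group means in this group, 0.12. ATM stood at 27.7, 31.8 and 30.2 CPM, above the parental library in both resistant ones, although its log2 ratio of group means was -0.14. Their effectors differed too. CHEK1, downstream of ATR, was read at 43.3, 50.6 and 37.5 CPM, and CHEK2, downstream of ATM, at 12.5, 9.18 and 8.30 CPM. The log2 ratio of group means was -0.14 for CHEK1 and -0.31 for CHEK2, with Benjamini-Hochberg adjusted p by edgeR of 0.996 and 0.813.

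TIMELESS, part of the complex that steadies the fork, was lower in both resistant libraries, at 190 against 134 and 101 CPM, with a log2 ratio of group means of -0.30. CLSPN, the mediator between ATR and CHEK1, stood at 102, 119 and 74.4 CPM. TOPBP1, the activator of ATR, was read at 87.2, 115 and 77.4 CPM and TP53BP1, which binds broken chromatin, at 143, 153 and 99.5 CPM. For these last 3 genes resistant library 1 was the highest and library 2 the lowest of the libraries.

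The 9 genes of homologous recombination and the Fanconi anemia pathway had a median log2 ratio of group means of -0.13, with 0 higher and 9 lower, but 5 of these ratios were within 0.13 of 0. BLM (ENSG00000197299, chromosome 15, 91260558 to 91358859 in hg19, plus strand) is the helicase that dissolves recombination intermediates. Its level was 45.4 CPM in parental cells and 28.4 and 16.4 CPM in the resistant clones, from 639, 464 and 285 reads. Both resistant values were below the parental one and far from each other. The group means were 616.8 and 397.4, a log2 ratio of -0.63, and edgeR gave a log2 fold change of -1.02 ± 0.40 (SE), an unadjusted p of 0.030 and a Benjamini-Hochberg adjusted p of 0.436. The log2 ratio to the parental library was -0.67 in resistant library 1 and -1.46 in resistant library 2.

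FANCD2 and FANCI form the pair that is ubiquitinated at blocked forks. FANCI was read at 163, 132 and 71.6 CPM, and its log2 ratio of group means was -0.47. It overlaps POLG on the other strand. FANCD2 stood at 339 CPM in the parental library, at 406 in resistant library 1 and at 143 in resistant library 2, from 4766, 6627 and 2475 reads. The parental value lay between the resistant ones, which were farther apart than for any other member, and the group means of 5303 and 5055 were nearly the same, with a log2 ratio of -0.07. Its pseudogene FANCD2P2 had 5, 11 and 6 reads.

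BRCA1, the gene with the highest ratio of this group, was read at 109.5, 125 and 89.5 CPM, and its group means were 1588.2 and 1587.9. BRCA2, the loader of the recombinase, had the lowest FPKM of all members, at 0.67, 0.82 and 0.45, and a log2 ratio of group means of -0.01. Its partner PALB2 stood at 22.3, 28.1 and 20.2 CPM. RAD52, which anneals single strands, was lower in both resistant libraries, at 18.8 against 12.3 and 11.1 CPM, with a log2 ratio of group means of -0.44. FANCA, in the core complex, was read at 82.9, 87.7 and 77.7 CPM, and the exonuclease EXO1 at 39.8, 41.8 and 27.9 CPM.

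Excision and mismatch repair had a median log2 ratio of group means of 0.04 over 5 members. ERCC2, a helicase of nucleotide excision repair, was highest, with a log2 ratio of 0.22 from group means of 940.5 and 1096. It was read at 52.5 CPM in the parental library, 53.9 in resistant library 1 and 103 in resistant library 2, so that of these resistant libraries only library 2 was well above the parental one. ERCC1, part of the nuclease that cuts beside the lesion, was below the parental library in resistant library 1 and above it in library 2, at 55.9, 35.5 and 72.2 CPM. XRCC1, a scaffold of single-strand break repair, stood at 38.6, 29.3 and 38.3 CPM. PARP1, the sensor of strand breaks, had the lowest ratio of this group, -0.09, at 614, 559 and 435 CPM, and the mismatch binder MSH6 was read at 135, 116 and 110 CPM. ERCC1 overlaps CD3EAP and FOSB, and ERCC2 overlaps KLC3, all on the other strand.

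**Figure D3:**
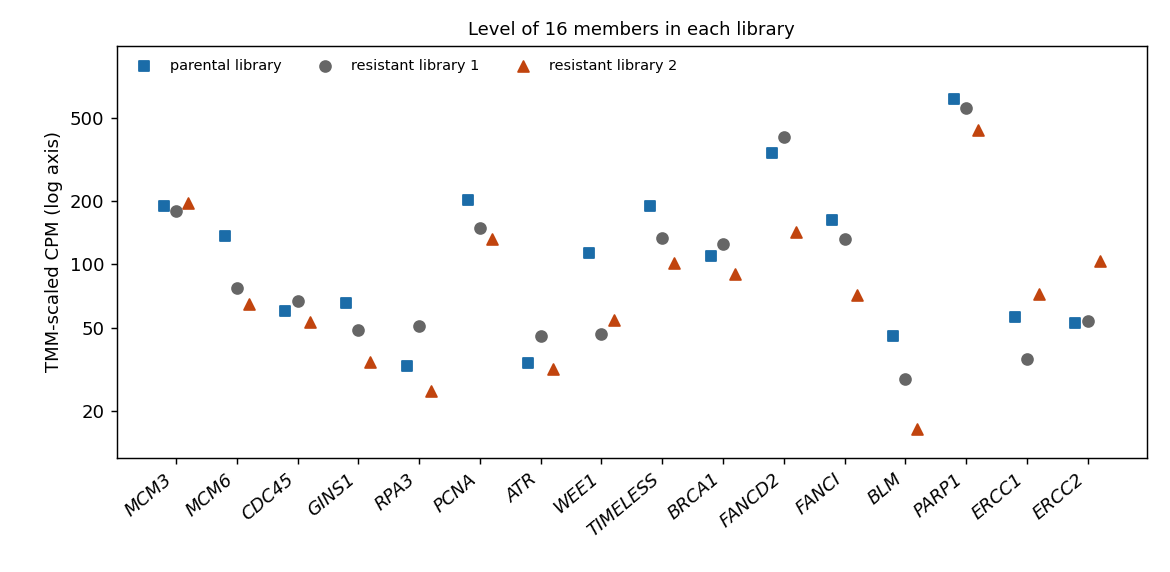
TMM-scaled CPM (log axis) of 16 members in the parental library (squares) and resistant libraries 1 (circles) and 2 (triangles). They are the member with the highest and the one with the lowest group-mean ratio in each role, with TIMELESS, FANCD2, FANCI and ERCC1 added after their values were seen. WEE1, MCM6 and BLM have both resistant points below the parental one, while the parental point of FANCD2 lies between the resistant ones.

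Counted over the members, both resistant libraries lay below the parental library for 21 (46.7%) and above it for 5 (11.1%), with 19 on either side. Over all tested genes the shares were 34.5% below and 35.2% above. The 5 above were RFC2, RFC4, RPA2, ATM and ERCC2. With total counts in place of TMM the numbers were 16 below and 7 above. By this scaling the median log2 ratio of all genes, resistant over parental, stood at 0.09 and not at 0.03 as with TMM. Of the 20 members that overlap no other gene of the table, 8 were below and 2 above. The shares of all tested genes given above are those with TMM. No such share was taken with total counts or over genes that overlap no other, so these 2 results have none beside them.

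Most of the members with the lowest ratios sat in stretches of the genome where the neighboring genes were lower too. For each member, the median log2 ratio of group means was taken over the other genes within 5 Mb on each side. Around WEE1, on chromosome 11, 63 neighbors had a median of -0.63. Around BLM and FANCI, which lie close together on chromosome 15 and share part of their neighbors, the medians were -0.57 and -0.63. They were -0.40 around MCM6, -0.42 around GINS1 and -0.39 around PCNA (both on chromosome 20), -0.36 around TIMELESS and -0.28 around RAD52. These 8 members, all those with a neighbor median below -0.25, had a median ratio of -0.46, and the other members one of 0.00. The 10126 genes in the members' range of means showed much the same: 15.8% of them had such neighbors (17.8% of the members), with a median ratio of -0.41 against 0.05 for the rest. CDC45, the member with the highest ratio, also had the highest neighbor median, 0.38.

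Across the 45 members the ratio followed that of the neighbors with a Pearson r of 0.88 and a Spearman rho of 0.74, a description across genes that share the same libraries and in part the same windows. For the 10126 genes in the members' range of means the values were 0.45 and 0.52. Subtraction of the neighbor median lowered the SD of the members' ratios from 0.27 to 0.13, and that of the other genes from 0.48 to 0.43. It left WEE1 at -0.28, MCM6 at -0.28 and BLM at -0.07, and no member was then past 1.5-fold. The largest differences left were those of EXO1 and MCM10, both at -0.30, below neighbors at 0.08 and 0.14. No DNA was measured here, and the part of chromosomal position in these ratios was not tested.

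**Figure D4:**
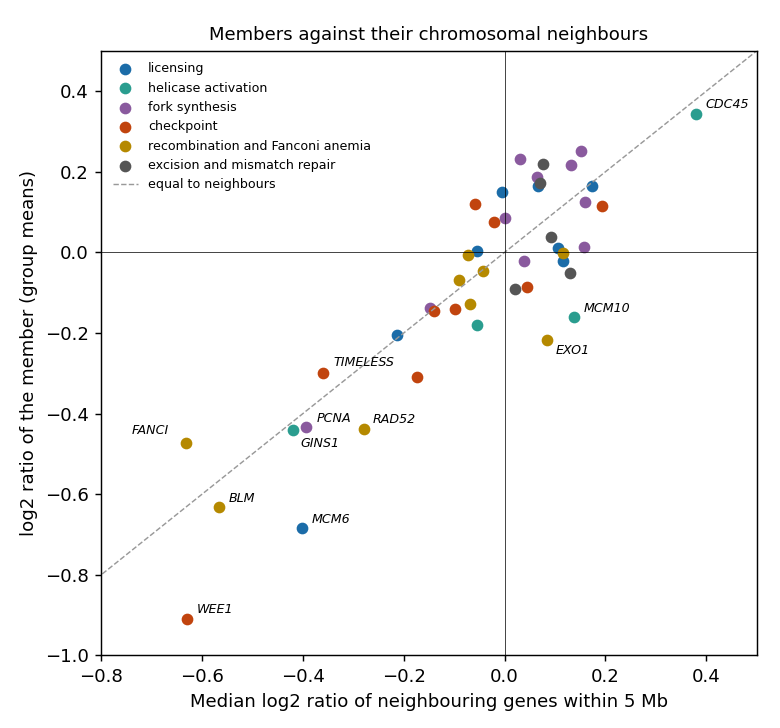
Log2 ratio of group means, resistant over parental, of each member (vertical axis) against the median of the genes within 5 Mb on each side of it (horizontal axis), colored by role, with a dashed line where both are equal. WEE1, BLM, FANCI, MCM6, PCNA and GINS1 lie at the lower left with their neighbors, and CDC45 at the upper right.

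The 2 resistant clones also differed from each other, with an SD of 0.46 for the log2 CPM ratios of the members. For the other genes in the members' range of means it was 0.53. In resistant library 2, 37 of the 45 members (82.2%) were lower than in library 1, with a median log2 CPM ratio of -0.29, while 7907 of 15643 tested genes were lower and their median was -0.01. At least 1.5-fold lower were 10 members (22.2%), against 13.2% of all genes, and at least 1.5-fold higher were 2 (4.44%), against 17.1%. With 1 library on each side no test applies, and these values compare 2 clones.

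The 10 members past 1.5-fold came from every role but excision and mismatch repair. FANCD2 led them with a log2 ratio of library 2 to library 1 of -1.51, followed by RPA3 at -1.02, FANCI at -0.88, RFC3 at -0.81 and BRCA2 and BLM both at -0.79. CDC6, CLSPN, MCM10 and TP53BP1 were the other members of that count. The role medians were -0.58 for recombination and Fanconi anemia, -0.43 for checkpoint, -0.42 for helicase activation, -0.24 for fork synthesis and -0.06 for licensing. Excision and mismatch repair stood at 0.39, with ERCC1 at 1.02 and ERCC2 at 0.94.

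The neighbors shared some of these differences and not others. ERCC1, ERCC2 and XRCC1 lie near each other on chromosome 19, where the neighbor medians of the same ratio were 0.71, 0.71 and 0.69. The neighbors of FANCD2 stood at -0.56, against its own -1.51, and those of RPA3, RFC3 and BRCA2 were at 0.10, 0.20 and 0.21. Markers of proliferation moved with the members: 19 of 20 were lower in resistant library 2 than in library 1, with a median log2 ratio of -0.59, among them CCNB2 at -1.32 and KIF20A at -1.12, while MKI67 was at 0.06. Their part in the members' values was not tested, and fewer dividing cells cannot be told apart from less RNA per cell in bulk samples.

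**Figure D5:**
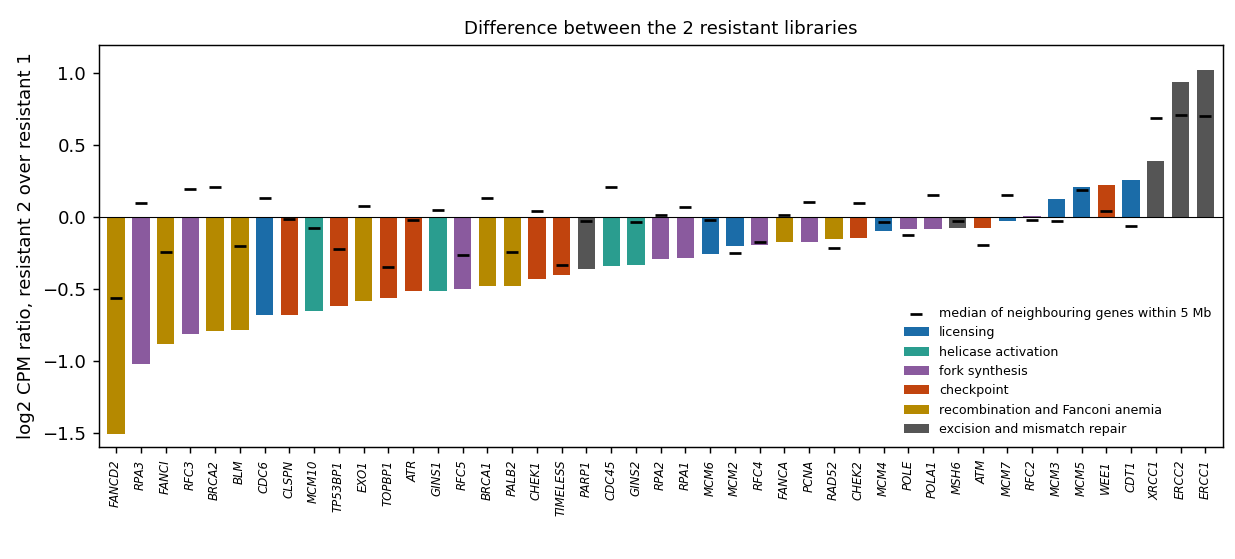
Log2 ratio of CPM in resistant library 2 to that in resistant library 1 (vertical axis) for the 45 members, colored by role, with black dashes for the median of their neighbors within 5 Mb. Bars of 37 members point down, FANCD2 farthest at -1.51, and ERCC1 and ERCC2 point up, where the dashes lie near 0.71.

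Beyond the members, 113 further genes of the same pathways were found, of which 112 were tested. By edgeR with Benjamini-Hochberg adjustment 0 were called. At an unadjusted p under 0.05 by edgeR 1 was higher and 4 were lower, where 4.85% of all genes were higher and 4.85% lower. Their median log2 ratio of group means was -0.01, with 55 higher and 57 lower. Like the members, most were lower in resistant library 2 than in library 1: 81 against 31 higher, with a median log2 CPM ratio of -0.21. Both resistant libraries lay below the parental library for 53 of the 112 and above it for 24, where the shares of all tested genes were 34.5% and 35.2%. By the group means 8 of the 112 were at least 1.5-fold lower and 2 at least 1.5-fold higher, where the shares of all genes were 9.51% and 9.04%. The 5 genes that follow were chosen after their values were seen. RFC1, the large subunit of the clamp loader, was the gene higher at that p, at 65.6 CPM in parental cells against 120 and 117 CPM in the resistant clones, unlike the small RFC subunits above. FEN1, the flap nuclease that works with PCNA, was read at 176, 108 and 95.99 CPM. CDC25C, the phosphatase that opposes WEE1, stood at 12.9, 6.30 and 3.46 CPM, and FANCG of the Fanconi anemia core complex at 102, 59.9 and 43.0 CPM. DDB2, which recognizes ultraviolet lesions, was the lowest by ratio, at 44.0, 19.5 and 14.8 CPM with a log2 ratio of group means of -1.01 and an edgeR adjusted p (Benjamini-Hochberg) of 0.171.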

How the data were processed

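RNA-Seq of single-cell clones of 5637 was done by Novogene on poly-A RNA. Per the labels, hg19 and CASAVA 1.8 were named by the submitters' processing notes. The aligner, counter, annotation and strand setting are not given in the sources used here. The authors deposited 1 table of 29960 genes with a raw read count and an FPKM value (reads scaled to gene length and counted reads) for each library. It also holds the authors' group signal, the mean of size-factor normalized counts per group, without SD. The deposited fold changes, p-values and adjusted p-values of the authors' own comparison were not used, nor were 6 per-library columns whose names match no label.

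Members were matched by symbol. They and all lists were chosen with earlier results of these data known. Counts of the 3 labelled libraries were scaled by TMM (factors 0.974, 1.03 and 0.995) to CPM, with a pseudocount of 0.1 for log ratios. At 3 counts, taken as the floor, the libraries stand at 0.213, 0.184 and 0.173 CPM, a limit of counting error only. The test was edgeR 4.0.16 (R 4.3.3), glmQLFit and glmQLFTest after filterByExpr, adjusted by the Benjamini-Hochberg method over all 15643 genes, with a biological coefficient of variation of 0.281. The fit was tested on simulated counts. DESeq2 1.42.0 was the alternative. Group means were compared as log2 ratios after a pseudocount of 1, for genes with a mean of at least 10. Neighbors were the other such genes within 5 Mb on the table's coordinates, at least 10 of them. Calculations used Python 3.11.15, pandas 2.3.3 and matplotlib 3.10.9.

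All members could be named. Full values went to members called or past 1.5-fold and to the highest and lowest of each role, and other genes were named if called or on the lists of cell type markers, proliferation, E2F and cyclin genes or p53 targets, apart from those said to be chosen after their values were seen. Alternatives covered the count model, scaling, filters, pseudocount, threshold, neighbor subtraction and each library left out.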

Additional observations from a re-analysis of the deposited data

How the results depend on the processing

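The count of members called stayed at 0 in each direction with DESeq2, with median-of-ratios size factors and without a filter, and reached 3 lower only at an unadjusted p under 0.05. Over all genes, edgeR's 46 higher calls became 123 with DESeq2, 96 with median-of-ratios factors, 273 without a filter and 758 at an unadjusted p under 0.05. The 91 lower calls became 124, 139, 261 and 759. The count of 3 members at least 1.5-fold lower was kept under both pseudocounts and centring. The 2 filters on the mean could not change it, since the lowest member mean was 108. That count was 0 after subtraction of the neighbor median and 7 when the 3 libraries replaced the group means. It was 6 to 11 with 1 resistant library left out, 7 at the lower fold threshold tried and 0 at 2-fold. The count of 0 members at least 1.5-fold higher was 1 without resistant library 1 (ERCC2), 2 without resistant library 2 (RPA3 and RFC3) and 1 at the lower fold threshold (CDC45). With that replacement the median of licensing was -0.12 and that of excision and mismatch repair -0.19, and that of fork synthesis -0.04, all 3 turned in sign, and the median of the members was -0.15. With 1 resistant library left out, the median log2 ratio ran from -0.291 to -0.018 over the members, from -0.265 to -0.082 for licensing, from -0.227 to 0.027 for fork synthesis, from -0.51 to -0.02 for helicase activation, from -0.45 to 0.20 for checkpoint, from -0.59 to 0.08 for recombination and Fanconi anemia and from -0.225 to -0.011 for excision and mismatch repair. The causes of these shifts were not tested. Chosen after seeing the data, restriction to the 20 members that overlap no other gene left 8 with both resistant libraries below the parental one and 2 above, a smaller list by construction. Total counts, also chosen after seeing the data, put the median of resistant library 2 over library 1 at -0.35. In all, 88 of these values were within the limit set for them and 26 were not. For counts the limit was 1.5 times the reported value. The 88 include the values under the 2 filters on the mean, which could change no member value. The median of resistant library 2 over library 1 was held to a fixed small share of its reported value, and under total counts it lay outside. For the other medians the limit was the SD of the medians of the 2 resistant libraries. Such a median could turn in sign and still lie within that limit. Those of checkpoint, of recombination and Fanconi anemia and of licensing did so without resistant library 2. Licensing also did so after centring, and fork synthesis when the 3 libraries replaced the group means. Excision and mismatch repair did so without resistant library 1 and after subtraction of the neighbor median. The edgeR test was not run with a resistant library left out, since 1 library against 1 leaves no residual degree of freedom, and not without the parental library, the only one of its group. No paired analysis was made, since the study describes the clones as independently derived and no label pairs a parental with a resistant one. The width of the intervals does not set the limit of a call over all genes, since PLK3 at a log2 fold change of 2.03 had an edgeR adjusted p (Benjamini-Hochberg) of 0.081.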

Other observations

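The cell cycle genes around these pathways gave further values. RB1, whose protein restrains the E2F factors, was read at a low level in all 3 libraries, 1.71, 1.77 and 1.84 CPM. E2F1 stood at 83.5 CPM in parental cells against 75.7 and 124 CPM in the resistant clones, and CCNE1 at 41.7, 45.5 and 62.1 CPM. CDKN2A, the inhibitor of CDK4 and CDK6, was read at 864, 438 and 527 CPM, and CDKN1B, an inhibitor of CDK2, at 64.1, 35.99 and 34.9 CPM. Their log2 ratios of group means were -0.37 and -0.53. Of the 20 genes of this list that were tested, edgeR called 0 after Benjamini-Hochberg adjustment, and 2 were higher (CDKN1A and CCND3) and 2 lower (CDKN1B and CDKN2A) at an unadjusted p under 0.05. Of the 20 proliferation markers, 2 were higher and 18 lower by the group means, with a median log2 ratio of -0.16. The median against the parental library was -0.07 in resistant library 1 and -0.68 in resistant library 2. At an unadjusted p under 0.05 by edgeR 3 were lower (KIF20A, CCNB1 and TPX2) and 0 higher, and 0 were called after Benjamini-Hochberg adjustment. KIF20A, a mitotic kinesin, had the lowest ratio of group means, a log2 ratio of -0.78. It fell further in the libraries, at 93.5 CPM in the parental one and 33.1 and 15.2 in the resistant ones. Their log2 ratios to the parental library were -1.495 and -2.61. KIF20A had an edgeR adjusted p (Benjamini-Hochberg) of 0.093 and a DESeq2 one of 0.017.

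Of 15 known p53 targets, 9 were higher and 6 lower by the group means, with a median log2 ratio of 0.23, and edgeR called 0 after Benjamini-Hochberg adjustment. The median against the parental library was -0.02 in resistant library 1 and 0.59 in resistant library 2. At an unadjusted p under 0.05 by edgeR 4 were higher and 1 lower. CDKN1A, the inhibitor of cyclin-dependent kinases, stood at 111, 164 and 281.5 CPM. PLK3, a stress kinase, was read at 11.5, 36.4 and 57.8 CPM, with an edgeR adjusted p (Benjamini-Hochberg) of 0.081 and a DESeq2 one of 0.004. FAS, the death receptor, was at 4.83, 14.9 and 10.9 CPM, and SESN2 at 21.2, 41.2 and 42.8 CPM. The log2 ratios of group means were 0.68 for CDKN1A, 1.37 for PLK3, 0.79 for FAS and 0.82 for SESN2. For FAS the ratios of resistant libraries 1 and 2 to the parental library were larger, at 1.61 and 1.16. MDM2, the main inhibitor of p53, was not higher, at 60.3, 53.7 and 35.9 CPM, and DDB2, also on this list, was the lower one.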
